A study of Rattus norvegicus with 6 samples.

Results

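Activins and bone morphogenetic proteins (BMPs) are secreted dimers of the TGF-β superfamily, and 10 of their genes were followed here in diabetic rat wounds. The 10 were chosen by symbol from a table of 18825 genes, and all 10 were in it. They are the ligand genes Inhba, Inhbb, Bmp2, Bmp4 and Bmp7, the antagonist genes Fst, Grem1, Sostdc1 and Nog, and the BMP target gene Id1. RNA came from full-thickness dorsal skin wounds of male Sprague-Dawley rats made diabetic with a high-fat, high-sucrose diet and then streptozotocin, which kills insulin-producing beta cells. The control group (3 libraries) had untreated wounds. The DST-MNs group (3 libraries) had wounds treated with microneedles that carried spheroids of dental pulp stem cells regulated by spermidine, a polyamine, and by the growth factor TGF-β3. Within a group, libraries are biological replicates per the labels. All wounds of both groups were diabetic, and the needle, the cells and the added agents cannot be told apart, since no group received only 1 of them. The labels give neither the rats' age nor the day of collection.

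An activin is a dimer of inhibin beta subunits. It binds a type II activin receptor, which recruits a type I receptor that phosphorylates SMAD2 and SMAD3. BMPs signal in the same manner through SMAD1, SMAD5 and SMAD9, which join SMAD4 and switch on the ID genes. Secreted antagonists hold the ligands away from their receptors: follistatin binds activins tightly, while noggin, gremlin 1 and SOSTDC1 bind BMPs. In skin, activin A is known as a wound-induced factor of granulation tissue and epidermal repair, and BMPs and their antagonists govern the hair cycle and keratinocyte differentiation.

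The 250 bases before the annotated start of 3 genes are shown because Inhba and Inhbb, the activin subunit genes, were both lower after treatment, while Id1 is the readout gene of BMP signalling. Sequences are from RefSeq, build GRCr8, written 5′ to 3′ on the strand of the gene. Capitals mark GGCGCC and CAGAC, letters known from SMAD-bound promoters, and the core promoter letters TATAAA and CCAAT, each searched on both strands.
Inhba (chr17:53804509-53804758, minus strand): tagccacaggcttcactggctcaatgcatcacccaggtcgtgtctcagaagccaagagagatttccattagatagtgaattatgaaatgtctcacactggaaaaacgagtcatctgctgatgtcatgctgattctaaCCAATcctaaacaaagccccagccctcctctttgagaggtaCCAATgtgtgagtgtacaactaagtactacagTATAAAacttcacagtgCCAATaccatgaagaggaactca
Inhbb (chr13:33089374-33089623, minus strand): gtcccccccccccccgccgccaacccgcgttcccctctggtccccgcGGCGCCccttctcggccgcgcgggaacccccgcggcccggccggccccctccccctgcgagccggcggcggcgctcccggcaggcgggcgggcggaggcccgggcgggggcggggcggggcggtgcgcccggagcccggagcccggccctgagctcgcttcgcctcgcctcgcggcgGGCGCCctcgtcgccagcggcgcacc
Id1 (chr3:161671314-161671563, plus strand): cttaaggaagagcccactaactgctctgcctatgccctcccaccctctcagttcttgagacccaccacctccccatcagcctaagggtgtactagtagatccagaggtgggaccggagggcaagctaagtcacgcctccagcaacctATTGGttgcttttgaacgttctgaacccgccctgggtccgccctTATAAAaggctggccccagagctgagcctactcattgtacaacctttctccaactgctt

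The activin subunit genes had unlike promoters. The Inhba window was 43.6% G and C and held 1 TATAAA and 3 CCAAT, while the Inhbb window was 86.8% G and C and held 2 GGCGCC and none of the other letters. The Id1 window, at 54.8% G and C, had 1 TATAAA and 1 CCAAT in reverse, and neither GGCGCC nor CAGAC. Bases farther from the start were not searched, so these absences hold for the window alone. Over all 33469 promoters of the table the median was 51.2%. GGCGCC was in 8.69% of them, CAGAC in 42.9%, TATAAA in 12.9% and CCAAT in 34.0%. Of the other members, Grem1 held 1 GGCGCC and 1 CCAAT, Nog held 1 GGCGCC and 1 CAGAC, and Bmp4 held 2 CAGAC. Members matched in the table numbered 6, and Bmp2, Bmp7, Fst and Sostdc1 were not matched.

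Totals ran from 12545206 to 13818548 counts per library. Deposited TPM values are scaled by gene length and can be set side by side between genes. Markers of fibroblasts (7 of 7 above 0 in every library, 24243 to 36409 TPM summed) and macrophages (7 of 7, 1005 to 1604 TPM) were present throughout. Of the macrophage markers, 2 were lower at an unadjusted p below 0.05 and 1 past edgeR's adjusted threshold. The macrophage marker Cd163 stood at 77.8, 60.2 and 69.5 TPM in the controls and 22.8, 25.9 and 18.4 TPM after treatment. Other tissue differed by library or by group. Skeletal muscle markers summed to 22.7 TPM in control 2 and 400.3 TPM in control 3, and to between 5712 and 7532 TPM in the other 4 libraries. Hair follicle markers summed to 1189 TPM in DST-MNs 1 and to 2.01 to 18.8 TPM elsewhere. Sebaceous gland markers differed by group, at 0.76 to 3.55 TPM in the controls and 216.3 to 259.5 TPM after treatment, and 3 of 4 were higher past edgeR's adjusted threshold.

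Bmp7, an epithelial BMP, and Sostdc1, a BMP and WNT antagonist, were higher in every DST-MNs library than in any control, at fitted folds of 18.6 and 18.1. Inhba and Inhbb, the activin subunit genes, were lower in every DST-MNs library, at 0.385 and 0.444 times the control level. Bmp2, Fst, Grem1, Nog and Id1 overlapped between the groups, and Bmp4 did so in scaled counts. No member passed the adjusted threshold. All 10 had enough counts to be tested, and 0 had an adjusted p below 0.05 in edgeR's quasi-likelihood test, where 112 of 14427 genes (0.776%) did. At an unadjusted p below 0.05 there were 4 members, against 16.7% of all genes. Bmp7 and Sostdc1 were higher, where 9.80% of all genes were, and Inhba and Inhbb lower, where 6.88% were. DESeq2, a second count test, called these 4 at an adjusted p below 0.05, along with 7.10% of genes (4.36% higher and 2.73% lower). Limma-voom called 0 members and 0.658% of genes. The libraries of the groups did not overlap in scaled counts for these 4 members, and for 22.9% of all genes. The median log2 change was -0.01 over the 10 members and 0.00 over all genes tested. Of the 10 changes, 5 were above 0 and 5 below.

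**Figure D1:**
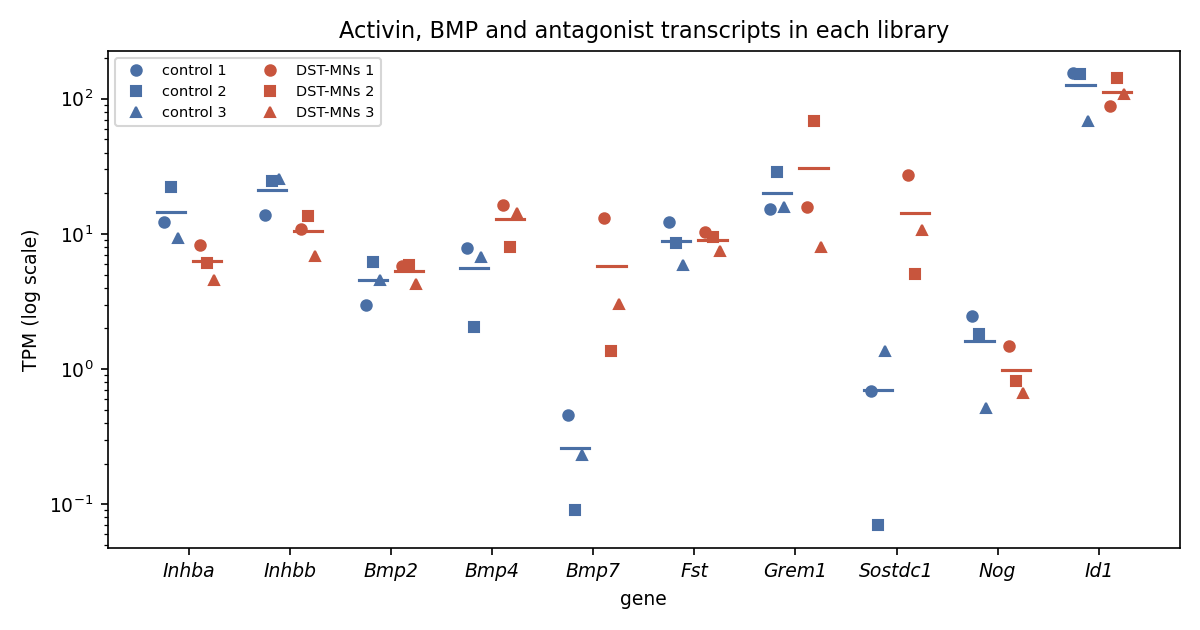
Level of each gene in TPM on a log axis, by library (points) with the group mean (line), 3 control and 3 DST-MNs libraries. Bmp7 and Sostdc1 lie higher and Inhba and Inhbb lower in every DST-MNs library than in any control, and Id1 is the highest gene in both groups.

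Inhba (gene ID 29200) encodes the inhibin beta A subunit, whose dimer is activin A. Its level was 12.3, 22.3 and 9.25 TPM in controls 1, 2 and 3 and 8.29, 6.09 and 4.59 TPM in DST-MNs 1, 2 and 3. Every treated library lay below every control, though DST-MNs 1 was close to control 3. The group means were 14.6 ± 6.82 and 6.32 ± 1.86 TPM (SD, n = 3), a log2 change of -1.38 with a 95% interval of -2.23 to -0.53 (SE 0.36, edgeR adjusted p = 0.155). The change ran from -1.64 to -0.94 with 1 library left out. DESeq2 gave an adjusted p of 0.00413, and 0.0739 without control 2 and 0.0637 without DST-MNs 3. In these bulk samples fewer cells of a type and less RNA per cell cannot be told apart.

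Genes that answer to handling and to inflammation moved with Inhba. Immediate early genes, which are induced within minutes of stimulation or dissection, summed to 601.4 to 1166 TPM in the controls and to 341.4 to 476.6 TPM after treatment. Of the 7 listed, all were above 0 in every library, 0 passed edgeR's adjusted threshold and 6 were lower at an unadjusted p below 0.05. Inflammatory cytokine genes summed to 89.6 to 603.4 TPM and 38.1 to 134.2 TPM, with 6 of 6 above 0 in every library, 0 past the adjusted threshold and 4 lower at an unadjusted p below 0.05. Set against 1000 TPM of the immediate early genes, Inhba stood at 17.0, 19.1 and 15.4 TPM in the controls and 17.4, 17.8 and 11.8 TPM after treatment. Per 1000 TPM of the cytokine genes Inhba stood at 34.6, 37.0 and 103.3 TPM in the controls and 102.6, 45.4 and 120.6 TPM after treatment. Per 1000 TPM of the fibroblast markers it stood at 0.48, 0.78 and 0.25 TPM against 0.34, 0.22 and 0.16 TPM. The groups overlapped on each of these scales, which were chosen after the values were seen. The part of these lists in the Inhba difference was not tested.

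Inhbb (25196) encodes the beta B subunit of activin B. It stood at 13.8, 24.7 and 25.4 TPM in the 3 controls and 10.9, 13.7 and 6.88 TPM after treatment. The groups did not overlap, but control 1 and DST-MNs 2 were nearly equal. Means of 21.3 ± 6.53 and 10.5 ± 3.41 TPM (SD, n = 3) gave a log2 change of -1.17 (SE 0.29, interval -1.87 to -0.47, edgeR adjusted p = 0.145). With 1 library left out it ran from -1.39 to -0.97, and the smallest adjusted p was 0.0501. DESeq2 gave an adjusted p of 0.00467 with all libraries, 0.116 without control 2 and 0.0878 without control 3. Control 2 and control 3, the libraries with little skeletal muscle RNA, were thus the highest for Inhbb, and the part of muscle content in the difference was not tested.

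Bmp7 (85272), a ligand of epithelia, was nearly absent from the controls. It had 14, 2 and 6 counts in controls 1, 2 and 3 and 335, 37 and 81 counts in DST-MNs 1, 2 and 3, or 0.46, 0.09 and 0.23 TPM against 13.1, 1.36 and 3.05 TPM. All treated libraries were above all controls, and DST-MNs 1 was far above the other treated libraries. The means were 0.26 ± 0.19 and 5.83 ± 6.34 TPM (SD, n = 3), so the treated spread was as large as the treated mean. The log2 change was 4.22, with an interval of 1.83 to 6.60 (SE 1.00, edgeR adjusted p = 0.132), and it was 2.97 without DST-MNs 1. DESeq2 called Bmp7 with all libraries (adjusted p = 0.000125) and with each of the 6 left out, at 0.0235 without DST-MNs 1. In the fits with 1 library left out it called from 506 of 14707 to 1889 of 14665 genes.

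Sostdc1 (266803) encodes a secreted BMP and WNT antagonist of hair follicles and epithelia. Its counts were 10, 1 and 18 in the controls and 365, 66 and 143 after treatment. In TPM these were 0.69, 0.07 and 1.35 against 27.4, 5.07 and 10.7, so that the lowest treated library was above the highest control. Means of 0.70 ± 0.64 and 14.4 ± 11.6 TPM (SD, n = 3) went with a log2 change of 4.18, interval 1.96 to 6.39. Leaving out 1 library gave 3.40 to 4.98, with the lowest value without DST-MNs 1. The adjusted p was 0.118 in edgeR and 3.17e-05 in DESeq2, which also called Sostdc1 with each of the 6 libraries left out. Those fits called from 506 of 14707 to 1889 of 14665 genes.

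Basal and differentiated keratinocyte markers moved with Bmp7 and Sostdc1, and wound-edge keratinocyte markers did so only in part. Sebaceous gland markers differed by group and varied little among the treated libraries. The 8 basal keratinocyte markers summed to 213.1, 52.5 and 212.2 TPM in the controls and to 3878, 341.6 and 1278 TPM after treatment. DST-MNs 1 was the highest and control 2 the lowest, as for both genes. Of these 8 markers 0 passed edgeR's adjusted threshold, 7 were higher at an unadjusted p below 0.05, and Krt15 was at 0 in some library. Differentiated keratinocyte markers summed to 1.89 to 7.92 TPM in the controls and 18.3 to 401.1 TPM after treatment, and 6 of 6 tested were higher at an unadjusted p below 0.05 with 0 past the adjusted threshold. Ivl and Flg, markers of late differentiation, were listed at 0 in all controls. The 3 wound-edge markers summed to 22.2, 2.50 and 29.2 TPM in the controls and to 790.7, 24.7 and 224.5 TPM after treatment. DST-MNs 2 thus lay inside the control range, with Krt6a at 3.11 TPM and Krt16 at 0. Of these 3 markers, 2 were higher at an unadjusted p below 0.05 and 0 past the adjusted threshold. The 4 sebaceous gland markers summed to 2.63, 0.76 and 3.55 TPM in the controls and to 259.5, 246.3 and 216.3 TPM after treatment. Of these, 4 were higher at an unadjusted p below 0.05 and 3 past the adjusted threshold, and Awat1, Awat2 and Mc5r were at 0 in some library. The part of sebaceous gland content in the Bmp7 and Sostdc1 differences was not tested. Hair follicle markers, with 6 of 10 at 0 in some library, summed to 2.01 to 14.6 TPM and 10.9 to 1189 TPM.

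Per unit of the summed basal keratinocyte markers the groups of both genes did not overlap, on a scale chosen after the values were seen. The sum leaned on Itga6 and Itgb4 in control 2, at 26.6 and 13.0 of 52.5 TPM. Krt5 and Krt14 stood at 3.06 and 6.90 TPM there. They stood at 50.7 and 85.5 TPM in control 3 and 1477 and 1913 TPM in DST-MNs 1. Relative to either keratin, Bmp7 was higher in control 2 (0.09 TPM) than in DST-MNs 1 (13.1 TPM). Sostdc1 was likewise higher in control 3 (1.35 TPM) than in DST-MNs 1 (27.4 TPM). Against these keratins the groups of both genes thus overlapped. The part of keratinocyte content in either difference was not tested. Bmp7 stood at 2.16, 1.72 and 1.08 TPM per 1000 TPM of the summed basal markers in the controls and 3.38, 3.98 and 2.39 after treatment. Sostdc1 stood at 3.24, 1.33 and 6.36 TPM on that scale in the controls and 7.06, 14.8 and 8.37 after treatment. Against the hair follicle markers both overlapped, since DST-MNs 1 had the least of either gene per 1000 TPM of that list, at 11.0 TPM for Bmp7 and 23.0 for Sostdc1.

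**Figure D2:**
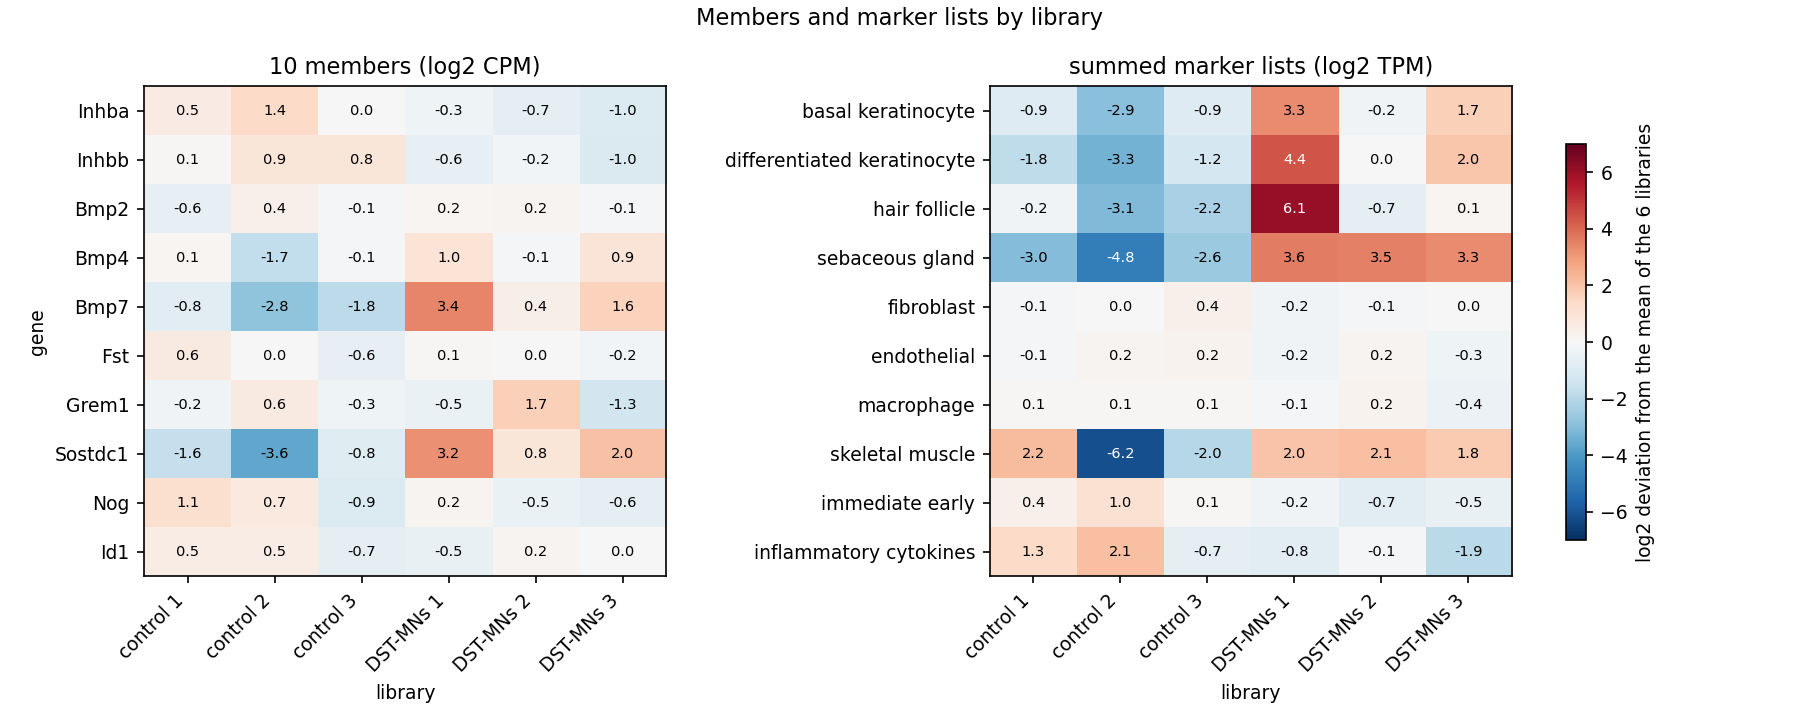
Log2 deviation of each library from the mean of the 6 libraries, for the 10 genes (left, log2 CPM) and for the summed TPM of 10 marker lists (right, log2 TPM), with the value in each cell. Bmp7 and Sostdc1 are highest in DST-MNs 1 and lowest in control 2, as is the basal keratinocyte list.

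Bmp4 (25296), a ligand of dermal and follicle mesenchyme, stood at 7.90, 2.06 and 6.72 TPM in the controls and 16.4, 7.94 and 14.2 TPM after treatment. In TPM the lowest treated library (7.94) was just above the highest control (7.90), and in scaled counts the groups overlapped. The log2 change was 1.04 (SE 0.53, interval -0.22 to 2.30, edgeR adjusted p = 0.377), and 0.64 without control 2, the lowest library. Neither edgeR nor DESeq2 (adjusted p = 0.286) called it.

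Bmp2 (29373), a ligand known for follicle and bone signalling, had the narrowest interval of the BMPs around 0. It stood at 2.97, 6.17 and 4.54 TPM in the controls and 5.80, 5.89 and 4.23 TPM after treatment, with all treated libraries inside the control range. The log2 change of 0.11 had an interval of -0.56 to 0.79 (SE 0.28, edgeR adjusted p = 0.873). It was -0.10 without control 1.

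Fst (24373) encodes follistatin, the activin antagonist. Its level was 12.2, 8.56 and 5.90 TPM in controls 1, 2 and 3 and 10.3, 9.44 and 7.42 TPM in DST-MNs 1, 2 and 3. The treated libraries lay within the range of the controls. The log2 change was -0.14 (SE 0.31, interval -0.87 to 0.60, edgeR adjusted p = 0.858), and it was 0.21 without control 1.

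Set against Inhba, Fst stood higher in every treated library. The log2 ratio of Fst to Inhba TPM was -0.01, -1.38 and -0.65 in the controls and 0.31, 0.63 and 0.69 after treatment. The means were -0.68 ± 0.69 and 0.54 ± 0.21 (SD, n = 3), a difference of 1.22 with an exact two-sided permutation p of 0.1. That is the smallest p this permutation test can give with 3 libraries against 3, so the test cannot reach 0.05. Without control 2, the highest library for Inhba, the difference was 0.87.

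Grem1 (50566) encodes gremlin 1, a BMP antagonist of fibroblasts, and 1 library set its group mean. It stood at 15.3, 28.9 and 15.8 TPM in the controls and at 15.8, 68.2 and 8.01 TPM in DST-MNs 1, 2 and 3. DST-MNs 2 was the highest of the 6 libraries and DST-MNs 3 the lowest, so the groups overlapped. The log2 change was 0.45 (SE 0.74, interval -1.32 to 2.21, edgeR adjusted p = 0.798), and -0.90 (adjusted p = 0.356) without DST-MNs 2. Its direction also turned with limma-voom, to -0.04. Fibroblast markers summed to 27143 TPM in DST-MNs 2, against 24243 and 29256 TPM in the other treated libraries. Neutrophil markers, with 4 of 4 above 0 in every library, summed to 2813, 3366 and 1249 TPM in the controls and to 1510, 3823 and 1234 TPM after treatment. They were highest in DST-MNs 2, then in control 2, and lowest in DST-MNs 3, as for Grem1. The order differed for control 1. Its neutrophil sum was well above those of DST-MNs 1 and control 3, while its Grem1 level was slightly below theirs. Of these 4 markers 0 had an unadjusted p below 0.05 in edgeR, and their part in the Grem1 levels was not tested.

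The log2 ratio of Grem1 to the summed TPM of Bmp2, Bmp4 and Bmp7 was 0.44, 1.80 and 0.46 in the controls. After treatment it was -1.16, 2.17 and -1.42. DST-MNs 1 and DST-MNs 3 lay below all controls and DST-MNs 2 above them. The difference of the means was -1.04 (exact permutation p = 0.5, two-sided, n = 3 a group), and -2.19 without DST-MNs 2. It was -0.39 without DST-MNs 3, -0.53 without DST-MNs 1 and -0.58 without control 2.

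**Figure D3:**
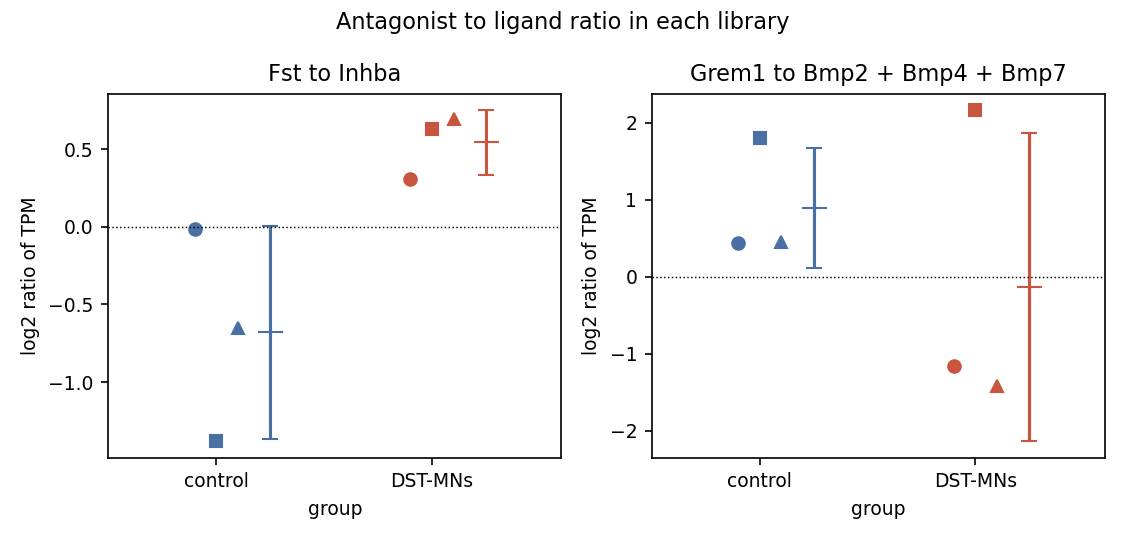
Log2 ratio of TPM of an antagonist to its ligands in each library (points) with the mean and SD of each group (n = 3). The Fst to Inhba ratio lies above 0 in the 3 DST-MNs libraries and below 0 in the 3 controls, while the Grem1 ratio of DST-MNs 2 stands apart from the other treated libraries.

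Nog (25495) encodes noggin, which blocks BMP2, BMP4 and BMP7, and it was the lowest member after treatment. It stood at 2.47, 1.82 and 0.52 TPM in the controls and 1.49, 0.82 and 0.67 TPM after treatment. Control 3 was the lowest of all, so the groups overlapped. The log2 change was -0.87 (SE 0.62, interval -2.34 to 0.59, edgeR adjusted p = 0.521), with 7 to 36 counts a library. Counts were fractional in 2 libraries, as for reads that may be shared with another gene, so its level is uncertain.

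Id1 (25261), a repressor of differentiation that BMP signalling induces, was by far the most abundant member. Its level was 154.1, 153.0 and 68.9 TPM in the controls and 87.7, 142.4 and 108.1 TPM after treatment, with every treated library inside the control range. The means were 125.3 ± 48.8 and 112.7 ± 27.6 TPM (SD, n = 3). The log2 change was -0.32 (SE 0.35, interval -1.14 to 0.51, edgeR adjusted p = 0.686), and it ran from -0.62 to -0.13 with 1 library left out, the latter without control 1. At this spread the change in Id1 could not be told from 0.

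The order of levels differed between the groups. In the controls Id1 came first by TPM, followed by Inhbb, Grem1, Inhba, Fst, Bmp4, Bmp2, Nog, Sostdc1 and Bmp7. After treatment the order was Id1, Grem1, Sostdc1, Bmp4, Inhbb, Fst, Inhba, Bmp7, Bmp2 and Nog. Sostdc1 thus stood at rank 9 among the controls and at rank 3 after treatment, and Inhbb at ranks 2 and 5. Id1 stood clear of its neighbour in both groups, and Bmp2 stood clear of Nog, with ranges that did not overlap. All other neighbours in either order overlapped in their ranges over 3 libraries.

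**Figure D4:**
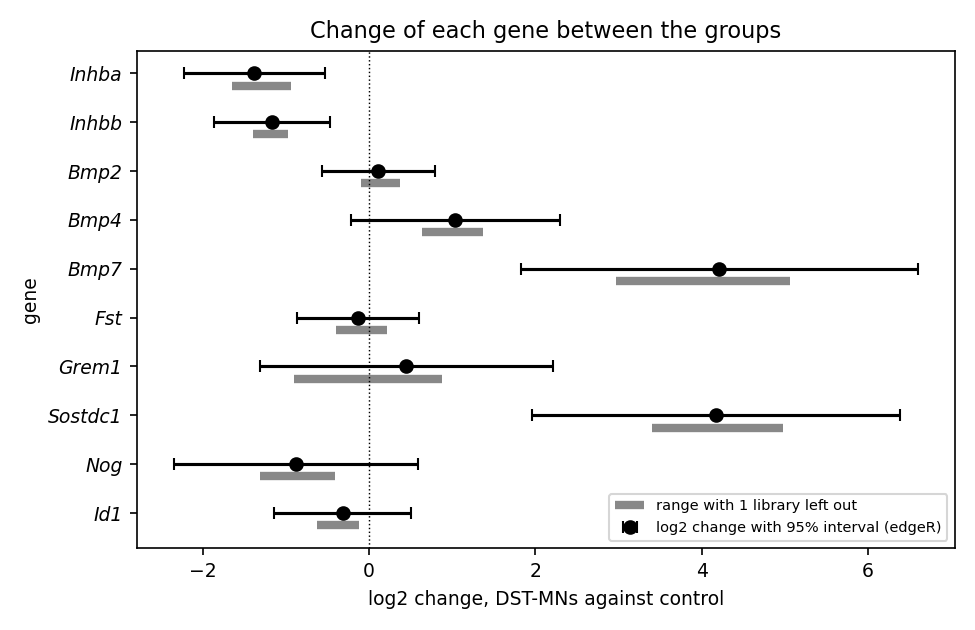
Log2 change of each gene between DST-MNs and control libraries (point, edgeR) with its 95% interval, and the range of the change with 1 of the 6 libraries left out (grey bar). The intervals of Inhba, Inhbb, Bmp7 and Sostdc1 leave out 0, though no adjusted p was below 0.05, and the grey bars of Bmp2, Fst and Grem1 cross 0.

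The other genes of the pathway gave no call in edgeR. Of 56 listed ligands, receptors, antagonists, transducers and targets, 55 were in the table and 46 had enough counts to be tested. After adjustment 0 were higher and 0 lower. Without adjustment, p was below 0.05 for 3 higher and 6 lower genes. DESeq2 called 4 of the 46: Rgmb, higher, and Eng, Htra1 and Bmper, lower. That share was near its 7.10% of all genes (4.36% higher and 2.73% lower). The share with an unadjusted p below 0.05 in edgeR, 9 of 46, was near the 16.7% of all genes. The list's median log2 change was -0.02, against 0.00 for all genes tested.

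Among the 6 other ligands tested, 0 had an unadjusted p below 0.05. Bmp6, an epithelial and iron-regulating BMP, stood at 9.35, 9.88 and 5.02 TPM in the controls and 4.94, 6.80 and 4.66 TPM after treatment (log2 change -0.72, SE 0.33, edgeR adjusted p = 0.33). The groups overlapped. Bmp5 was low throughout, at 0.33 to 1.00 TPM in the controls and 1.02 to 1.75 TPM after treatment (log2 change 0.87, SE 0.47, edgeR adjusted p = 0.407). Mstn, which encodes the muscle growth inhibitor myostatin and was too low to be tested, had 0 counts in all controls and 10, 7 and 5 counts after treatment; it was chosen after its values were seen.

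All 13 receptors and co-receptors were tested, with 2 higher and 3 lower at an unadjusted p below 0.05. Of all genes tested, 9.80% were higher and 6.88% lower at that threshold. Rgmb, a BMP co-receptor of the repulsive guidance family, stood at 9.57, 10.4 and 11.5 TPM in the controls and 17.0, 15.1 and 14.0 TPM after treatment. The groups did not overlap, and the log2 change was 0.41 (SE 0.10, edgeR adjusted p = 0.145, DESeq2 adjusted p = 0.0432). Eng, the endoglin co-receptor of endothelial cells, stood at 138.4, 184.2 and 179.5 TPM in the controls and 120.7, 136.7 and 83.2 TPM after treatment. All treated libraries were lower, with a log2 change of -0.71 (SE 0.19, edgeR adjusted p = 0.156, DESeq2 adjusted p = 0.00589). Endothelial markers summed to 351.5 to 443.5 TPM and 305.4 to 425.8 TPM, with 0 of 5 past edgeR's adjusted threshold and 1 lower at an unadjusted p below 0.05. The type II receptor gene Acvr2b (log2 change 0.67) and the BMP receptor genes Bmpr1b (-0.99) and Bmpr2 (-0.40) were the others with an unadjusted p below 0.05, and they too were named after their values were seen.

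Of 11 other antagonists tested, 2 were lower at an unadjusted p below 0.05, where 6.88% of all genes were. Htra1, a secreted serine protease that restrains TGF-β family signalling, had the steadiest levels, at 618.0, 630.2 and 668.3 TPM in the controls and 473.1, 492.0 and 495.3 TPM after treatment. Its groups were far apart relative to their spread, with a log2 change of -0.54 (SE 0.13, edgeR adjusted p = 0.146, DESeq2 adjusted p = 2.92e-05). Bmper, a BMP-binding protein of endothelium, stood at 5.89, 9.88 and 25.0 TPM in the controls and 6.42, 6.56 and 2.48 TPM after treatment. The groups overlapped in TPM and not in scaled counts, and control 3 was the highest (log2 change -1.59, SE 0.57, edgeR adjusted p = 0.238, DESeq2 adjusted p = 0.0436).

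The 6 SMAD transducers had log2 changes between -0.19 and 0.44, and 0 had an unadjusted p below 0.05. Smad4, the partner shared by both branches, stood at 47.9 ± 0.77 TPM in the controls and 46.5 ± 5.72 TPM after treatment (SD, n = 3, log2 change -0.19, SE 0.11). Smad9 was low, at 0.42 ± 0.04 and 0.63 ± 0.11 TPM (log2 change 0.44, SE 0.29).

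Of the 10 other targets, 1 was higher and 1 lower at an unadjusted p below 0.05, against 9.80% and 6.88% of all genes. Id4, a relative of Id1, stood at 6.88, 6.81 and 3.81 TPM in the controls and 18.5, 8.70 and 13.8 TPM after treatment. Every treated library was higher, at a log2 change of 1.06 (SE 0.37, edgeR adjusted p = 0.23), while DESeq2 gave an adjusted p of 0.0992. Smad7, an inhibitor that TGF-β, activin and BMP signals all induce, stood at 5.10, 5.97 and 5.40 TPM in the controls and 5.48, 3.42 and 3.74 TPM after treatment (log2 change -0.56, SE 0.23, edgeR adjusted p = 0.286). DST-MNs 1 lay inside the control range in TPM, while in scaled counts the groups did not overlap.

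**Figure D5:**
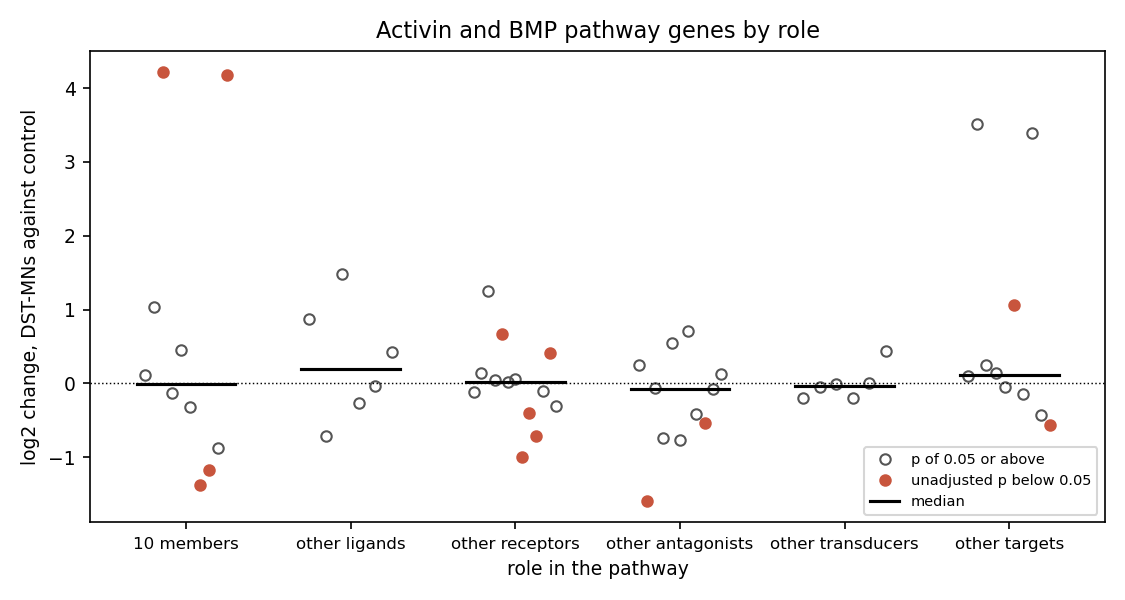
Log2 change between DST-MNs and control libraries (edgeR) of the 10 members and of the 46 other pathway genes tested, by role, with the median of each role (line) and genes at an unadjusted p below 0.05 filled. Medians lie between -0.08 and 0.20, and the 2 highest members are Bmp7 and Sostdc1.

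The genes whose course over the 6 libraries was nearest to a member's were found by the root mean square difference of log2 CPM after centring, over 12513 genes. Nearest to Inhba were Slco2a1 (0.18 log2 units), a prostaglandin transporter, Nrn1 (0.19) and Adamts4 (0.20), an aggrecan-cleaving protease, against a median of 0.80 over all genes. Pcsk5 (0.13), a proprotein convertase, Ntm (0.16) and Golm2 (0.18) were nearest to Inhbb, where the median was 0.71. For Bmp7 they were Esrp2 (0.18), an epithelial splicing factor, Celsr2 (0.25) and Tenm4 (0.25), with a median of 2.11. For Sostdc1 they were Moxd1 (0.28), Anxa8 (0.31) and S100a14 (0.32), with a median of 2.30. Esrp2 stood at 1.09, 0.37 and 0.71 TPM in the controls and 28.9, 3.28 and 7.92 TPM after treatment. Each nearest gene was picked for its small distance over these same libraries. A distance below the median and a library order like the member's therefore follow from the choice. These distances describe 6 libraries, and 0 of these 12 genes had an adjusted p below 0.05 in edgeR.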

How the data were processed

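A single table covered 6 libraries, 3 a group, and its columns were matched to samples by library name. Per the file headers, the values the authors gave as estimated counts are unscaled reads per gene. Most are whole, and the rest were rounded here. The TPM values deposited by the authors are scaled by gene length and have the same sum in each library, within rounding. The FPKM values and the normalised signal (counts divided by 1 factor a library) deposited by the authors were not used. Reads were handled on mRatBN7.2, per the submitters' processing notes; aligner and counter: not given in the sources used here.

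Genes were kept by filterByExpr (minimum count 10), given TMM factors and compared by the quasi-likelihood test of edgeR 4.0.16 in R 4.3.3, with Benjamini-Hochberg adjustment over 14427 genes and a threshold of 0.05. The SE is the log2 change divided by the root of F. A prior count of 2 went into centred log2 CPM. The alternatives used DESeq2 1.42.0, limma 3.58.1, other scalings and filters, the replicate number as a block, and each library left out. A limma trend test on log2(TPM + 1) (mean TPM at or above 1), and DESeq2 with libraries left out, were added after seeing the data. In simulated counts for DST-MNs against control, 14273 genes were tested, and the recovery was 13 of 100 at a 2-fold change and 85 of 100 at a 4-fold change, with 5 false calls.

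The members, lists and tests were chosen with earlier results of these data known. Named were the 10 members, the 2 pathway genes with the smallest p in each role, and the 3 nearest genes (mean log2 CPM of at least 1) of each member with an unadjusted p below 0.05. Mstn, Acvr2b, Bmpr1b and Bmpr2 were named after their values were seen. How reads shared by similar genes were divided is not given.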

Additional observations from a re-analysis of the deposited data

How the results depend on the processing

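With edgeR, 0 of the 10 members passed under any scaling, count filter or library left out. The exceptions to a count of 0 were DESeq2 (4 members, and 4 of 46 other pathway genes) and the replicate block (1 member). DESeq2 with 1 library left out called 2 to 4 members. In those fits it called from 506 of 14707 genes (without control 2) to 1889 of 14665 genes (without control 1). With all libraries DESeq2 called 7.10% of genes, and the replicate block called 123 of 14427. Inhba, Inhbb, Bmp4, Bmp7, Sostdc1, Nog and Id1 kept their direction in every alternative that tested them. The direction turned for Bmp2 without control 1 (-0.10 to 0.37 over the libraries left out) and for Fst without control 1 (-0.39 to 0.21) and in the limma trend test on TPM (0.061). Grem1 turned with limma-voom (-0.042), the replicate block (-0.040) and without DST-MNs 2 (-0.90 to 0.88 over the libraries left out). The cause was not tested. At least 10 counts in every library left Bmp7, Sostdc1 and Nog untested.

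The number of genes called, 112, was 38 (28 higher, 10 lower) with at least 10 counts in every library, 1018 (626 higher, 392 lower) with DESeq2 and 123 with the replicate block. It ran from 14 without DST-MNs 3 to 402 without control 1, and was 34 without control 2, 53 without control 3, 23 without DST-MNs 1 and 34 without DST-MNs 2. Total counts in place of TMM moved the median of all genes by 0.12 log2 units, as did TPM (0.12), and neither turned a member other than Fst. The deviations of same-numbered libraries from their group means correlated at -0.02, 0.10 and 0.11. Other pairs of a control and a treated library ran from -0.22 to 0.10. With 3 libraries a group, these values cannot settle whether same-numbered libraries were paired. With the number as a block, Bmp7 was at 4.10 (adjusted p = 0.0291).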
